A study of Mus musculus with 8 samples.

Results

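The genes described here encode the receptors with which cells hold and sense their matrix: the integrin subunits, the syndecans and the discoidin domain receptors. They were chosen by name. No measured value entered the rule, but earlier results of these data were known. The 32 genes were 18 integrin alpha subunits (Itga1, Itga2, Itga2b, Itga3, Itga4, Itga5, Itga6, Itga7, Itga8, Itga9, Itga10, Itga11, Itgad, Itgae, Itgal, Itgam, Itgav and Itgax), 8 integrin beta subunits (Itgb1 to Itgb8), 4 syndecans (Sdc1 to Sdc4) and both discoidin receptors (Ddr1 and Ddr2). All 32 were found among the 50462 gene identifiers of the table, and 34824 of these identifiers held 1 count or more in some library. The libraries came from cartilage of the medial side of the knee of wild-type male C57Bl/6J mice. Naive mice (D0, 4 libraries) had no operation and were 11 weeks old. DMM mice (D42, 4 libraries) were operated at 11 weeks of age, when the ligament holding the medial meniscus of the left knee to the tibia was cut, and their cartilage was taken 6 weeks later. Each library was made from the cartilage of 1 mouse. Without sham-operated mice in these data, effects of joint destabilisation, of the surgery itself and of 6 weeks of added age cannot be told apart.

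Integrins are pairs of an alpha and a beta subunit that span the cell membrane. The alpha subunit largely sets the ligand, with separate groups for collagens, laminins and the RGD motif of fibronectin and related proteins, and a further group is carried by blood cells. Syndecans are membrane proteins that hold heparan sulfate chains and act beside integrins in adhesion and growth factor binding, and discoidin receptors are receptor tyrosine kinases that bind fibrillar collagen. In cartilage these receptors link the chondrocyte to collagen and fibronectin around it.

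The libraries held between 12479443 and 16548002 estimated counts. Values by library are given as normalised counts, the estimated count divided by a size factor of the library, and always in the order of libraries 1 to 4. The chondrocyte markers were present, with Col2a1 (type II collagen) at 23979.3 ± 9798.4 normalised counts in the naive group and 63820.8 ± 27070.1 in the DMM group (mean ± SD of 4 libraries, as for every mean below). Not all of them went this way: Col9a1 was at 681.8 ± 709.9 in naive and 531.9 ± 330.7 in DMM, and Matn3 at 128.0 ± 137.9 and 104.5 ± 74.9. Markers of blood-forming cells were also present, and the summed counts of 12 markers of the neutrophil lineage made up 0.895 to 1.25% of naive and 0.421 to 0.884% of DMM libraries. Those of 8 erythroid markers made up 1.07 to 1.8% of naive and 0.593 to 1.26% of DMM libraries. In bulk tissue, fewer cells of a type and less RNA per cell cannot be told apart.

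More of the adhesion receptors rose than fell in DMM cartilage. A gene was called where DESeq2 gave an adjusted p of at most 0.05 and the levels differed by at least 1.5-fold. By this rule 9 of the 32 genes were higher in DMM (Itgb4, Itga11, Sdc1, Itga3, Ddr2, Sdc2, Sdc3, Ddr1 and Itga7), 2 were lower (Itga2b and Itgam) and 21 were not called. The receptors called higher made up 28.1% of the 32, beside 7.75% of the 17760 genes tested. Those called lower made up 6.25%, beside 5.92% of all genes tested. The median log2 fold change, DMM over naive, was 0.32 over the receptors and -0.02 over all genes tested. The families differed. Of the 26 integrin subunits, 4 were called higher (15.4%) and 2 lower (7.69%), with a median log2 fold change of 0.10. Among the 4 syndecans 3 were called higher, as were both discoidin receptors. A further 13 receptors passed the adjusted p but changed by less than 1.5-fold, a log2 change of 0.585. By the adjusted p alone, 17 receptors were higher, beside 11.4% of all genes tested, and 7 were lower, beside 11.2% of all genes tested. In 14 receptors every DMM library lay above every naive library, as in 11.9% of all genes tested, and in 6 every DMM library lay below, as in 10.3% of all genes tested. Of the integrin subunits, 9 lay above in this way and 6 below. The split depended on scaling. With the total count as size factor, 14 receptors were higher and 1 was lower, beside 2030 and 489 of all genes. Of all genes called, 80.6% were then higher in place of 56.7%. Over genes averaging 10 or more counts the median log2 change moved from -0.01 to 0.14. No receptor changed direction with that scaling.

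**Figure D1:**
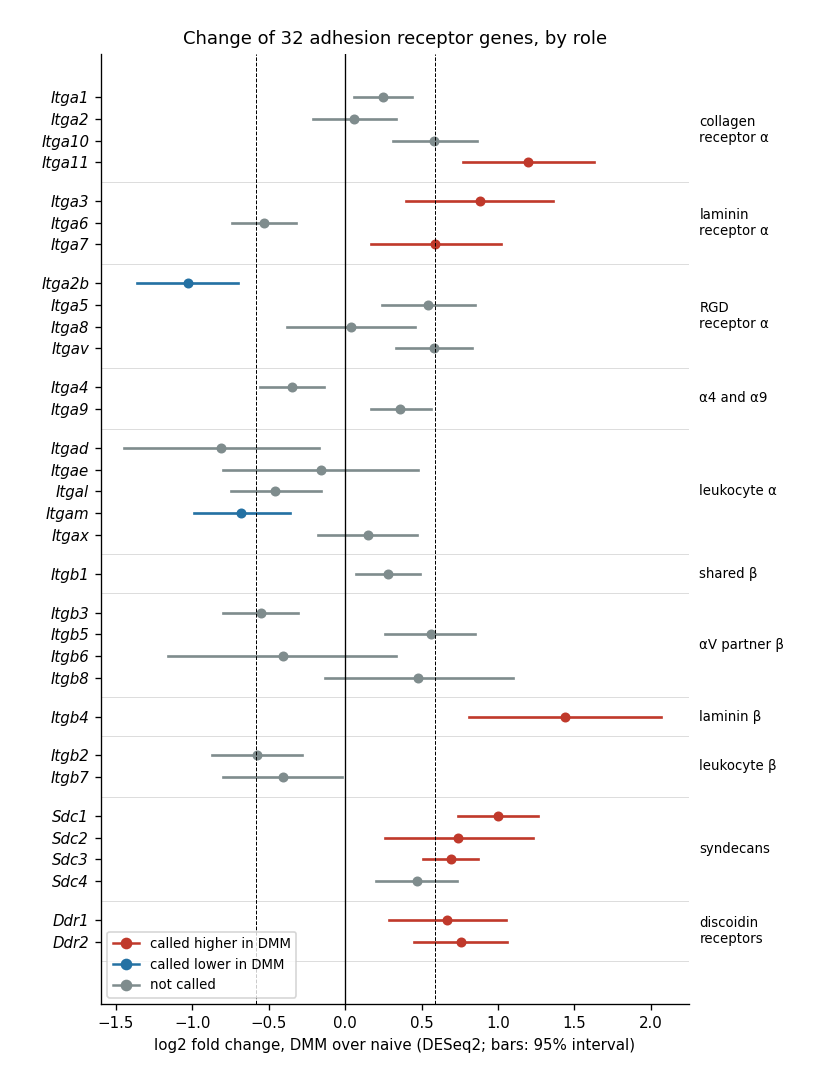
Log2 fold change, DMM over naive, of the 32 receptors grouped by role, with points for the DESeq2 estimate bars for its 95% interval, colours for the call and dashed lines at 1.5-fold. The laminin subunit Itgb4 sits farthest to the right at 1.44 and Itga2b farthest to the left at -1.03.

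Of the 11 receptors called, 8 had a RefSeq promoter entry, and the sequence is shown for Sdc3 (higher) and Itgam (lower), whose 250 bases before the RefSeq start lie wholly before the gene model. The stretches of the other called receptors reach into the gene model, by 239 bases for Itga2b, 73 for Sdc1 and 29 for Itga11, and are not shown. The sequences are on GRCm38.p6 and read 5′ to 3′ on the strand of the gene. Capitals mark matches, on either strand, to the letters GATAA (GATA factors), GAGGAA (ETS factors), GGGCGG (the GC box), TGANTCA (AP-1) or TATAAA (the TATA box). No matches of different motifs overlapped in these.
Sdc3, chr4:130792287-130792536, plus strand: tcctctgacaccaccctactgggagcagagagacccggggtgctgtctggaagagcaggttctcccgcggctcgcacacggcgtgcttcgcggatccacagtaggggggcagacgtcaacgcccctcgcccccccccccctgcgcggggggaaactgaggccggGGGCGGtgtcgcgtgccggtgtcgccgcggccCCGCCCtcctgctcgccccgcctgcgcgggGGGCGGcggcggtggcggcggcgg
Itgam, chr7:128062390-128062639, plus strand: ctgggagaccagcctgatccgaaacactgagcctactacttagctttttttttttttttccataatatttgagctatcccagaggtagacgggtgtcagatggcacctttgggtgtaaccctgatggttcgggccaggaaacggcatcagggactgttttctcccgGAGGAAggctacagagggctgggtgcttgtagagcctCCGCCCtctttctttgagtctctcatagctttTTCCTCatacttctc
The GC box was found at 3 places in Sdc3 and once in Itgam. GAGGAA was found at 2 places in Itgam and at none in Sdc3, and neither held the GATA, AP-1 or TATA letters. Of all 32851 promoter entries of the same length, 23.3% held GAGGAA, 32.7% GGGCGG, 22.6% GATAA, 6.75% TGANTCA and 12.4% TATAAA. An entry was present for 23 of the 32 receptors, of which 9 held GAGGAA, 10 the GC box, 2 GATAA, 2 TGANTCA and 1 TATAAA. These are receptors with a match in any of their entries, and 20 of the 23 had 1 entry, whereas the percents are per entry. Some of these entries lie wholly inside the gene model, such as that of Ddr2, which held the TATAAA. A match describes letters and is not a site of binding.

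Among the 4 collagen-binding alpha subunits, which all pair with Itgb1, Itga11 rose most. Itga11 (ENSMUSG00000032243, chr9:62677826-62783982, plus strand), the alpha subunit that binds fibrillar type I collagen, measured 360.6, 400.4, 573.7 and 657.6 normalised counts in the naive libraries and 1330.2, 1113.7, 1331.1 and 791.5 in the DMM libraries. All 4 DMM values lay above all 4 naive values, with DMM 4 nearest to the naive range. The mean went from 498.1 ± 141.0 to 1141.6 ± 254.8, a log2 fold change of 1.20 (SE 0.22) with an adjusted p of 2.85e-06. It was called whichever library was left out. Itga10 (ENSMUSG00000090210, chr3:96645584-96664519, plus strand), the type II collagen receptor of chondrocytes, measured 589.2, 592.0, 682.8 and 672.4 in the naive libraries and 1035.0, 1123.4, 831.4 and 812.3 in the DMM libraries. The groups did not overlap and DMM 1 and DMM 2 were highest. Its log2 fold change of 0.58 (SE 0.14, adjusted p = 0.000429) lay just under the 1.5-fold limit, and it was called with edgeR (0.60, adjusted p = 0.0107), with TMM factors (0.61) and with the filter on a mean of 10 or more counts (0.59). It was also called in 4 of the 8 leave-one-out fits, at 0.62 without naive 3, 0.61 without naive 4, 0.64 without DMM 3 and 0.65 without DMM 4. Of the 31-base words of the Itga10 transcripts, 31.8% also occur in Gm42957, a gene model that overlaps it on the same strand, so the count of Itga10 is uncertain. Gm42957 itself held 66.0 to 121.8 normalised counts.

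Itga1, a receptor for type IV and other collagens, ranged from 935.2 to 1120.4 in naive and from 1134.5 to 1237.3 in DMM libraries. Its groups did not overlap, but the change was small at 0.25 (SE 0.10) on the log2 scale (adjusted p = 0.0497). Itga2, known as the collagen receptor of platelets and epithelia, ranged from 343.6 to 460.3 over both groups, which overlapped, with a log2 fold change of 0.06 (95% interval -0.21 to 0.33, adjusted p = 0.811). Within the summed level per kilobase of the 4 subunits, Itga11 took 23.5, 25.5, 32.5 and 34.4% in naive libraries and 44.3, 38.8, 48.4 and 35.3% in DMM libraries. Its share did not overlap between groups and averaged 29.0 ± 5.32% in naive and 41.7 ± 5.80% in DMM. The share of Itga1 was 16.6 ± 2.42% in naive and 12.3 ± 1.22% in DMM, also without overlap. The share of Itga10, 37.1 ± 1.57% in naive and 34.7 ± 3.68% in DMM, overlapped. Library scaling cannot move these shares, and they were not tested. They depend on the gene length used. With the longest transcript as length, Itga1 took 24.8% in naive and 18.8% in DMM libraries and Itga11 took 26.4 ± 5.13% and 38.8 ± 5.50%, and neither share overlapped between the groups.

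**Figure D2:**
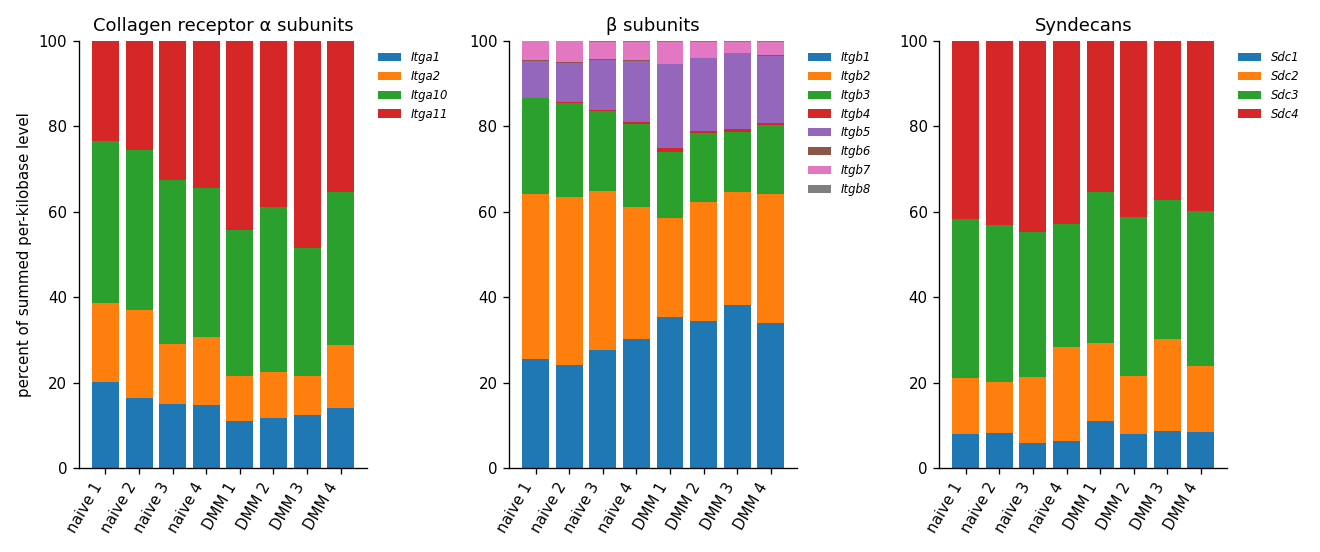
Share, in percent of the summed normalised counts per kilobase of a receptor family, of each family member in the 8 libraries. Itga11 took 23.5 to 34.4% of the collagen-binding alpha subunits in naive and 35.3 to 48.4% in DMM libraries.

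Some markers of connective tissue and vessel cells were also called higher. Of 8 osteoblast and osteocyte markers 7 were called higher, with a summed share of 0.121 to 0.182% of counts in naive and 0.294 to 0.540% in DMM libraries. Of 10 chondrocyte markers 5 were called higher (0.298 to 0.432% and 0.691 to 1.32%). Those not called were Hapln1 (0.79 on the log2 scale), Cnmd (0.46), Chad (0.40), Matn3 (-0.29) and Col9a1 (-0.36). Of 6 smooth muscle and pericyte markers 5 were called higher (0.0166 to 0.0320% and 0.0437 to 0.0584%). Of 7 endothelial markers 3 were called higher (0.0221 to 0.0302% and 0.0353 to 0.0418%). The endothelial markers not called were Tek (0.57), Tie1 (0.48), Kdr (0.36) and Pecam1 (-0.03). The synovial and activated fibroblast list, with 4 of 7 called higher, overlapped between groups at 0.195 to 0.692% in naive and 0.211 to 0.383% in DMM. Its summed level had a log2 ratio of -0.465, DMM over naive, and its members ranged from Lrrc15 at 3.04 to Prg4, its most abundant gene, at -0.54 (adjusted p = 0.407). The shares of all marker lists are percents of total counts, a scaling that moved the median log2 change from -0.01 to 0.14. On normalised counts the summed levels had log2 ratios of 1.14 (osteoblast and osteocyte), 1.16 (chondrocyte), 0.982 (smooth muscle and pericyte) and 0.346 (endothelial). The part of such cells in the rises of Itga11 and of the other receptors was not tested.

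The laminin-binding integrins included the receptor with the largest fold change. Itgb4 (ENSMUSG00000020758, chr11:115974709-116008412, plus strand), the beta subunit that pairs with Itga6 in hemidesmosomes of epithelia, measured 31.7, 54.5, 69.6 and 82.8 normalised counts in the naive libraries and 219.8, 105.3, 196.7 and 121.8 in the DMM libraries. Every DMM value lay above every naive value, and the mean went from 59.6 ± 21.9 to 160.9 ± 55.9. The log2 fold change was 1.44 (SE 0.32), 2.71-fold, with an adjusted p of 0.000144, and it was called whichever library was left out. The level was low, at 8.50 normalised counts per kilobase of gene model in naive and 22.9 in DMM. An antisense gene, B230344G16Rik, overlaps Itgb4, and use of strand in the counting is not given in the sources used here. Of 6 epithelial markers 1 was called higher (Epcam, 0.97 on the log2 scale). Krt18 was -0.92 (adjusted p = 0.104) and Cdh1 was -0.66 (adjusted p = 0.143), and the keratins Krt5, Krt14 and Krt8 stayed under 10 normalised counts in every library. The epithelial list summed to 0.000880 to 0.00124% of counts in naive and 0.000963 to 0.00170% in DMM libraries.

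Itga6 (ENSMUSG00000027111, chr2:71745616-71858416, plus strand), a laminin receptor alpha subunit that also marks stem and progenitor cells, measured 1391.2, 1467.4, 1265.0 and 1401.4 in the naive libraries and 915.5, 981.5, 1067.7 and 856.5 in the DMM libraries. Unlike Itgb4 it was lower in DMM, without overlap, and the mean went from 1381.3 ± 84.5 to 955.3 ± 90.7. The log2 fold change of -0.53 (SE 0.11) passed the adjusted p (2.1e-05) but was under 1.5-fold, and only without DMM 3 did it reach the call (-0.59). Itga3 (ENSMUSG00000001507, chr11:95044474-95076801, minus strand), the alpha subunit for laminins of basement membranes, measured 73.0, 57.2, 71.7 and 83.9 in the naive libraries and 131.0, 189.2, 102.9 and 106.5 in the DMM libraries. Naive and DMM values did not overlap and DMM 2 stood highest. Its log2 fold change was 0.88 (SE 0.24) with an adjusted p of 0.00302, and it was called whichever library was left out. Itga7 (ENSMUSG00000025348, chr10:128933818-128958282, plus strand), the laminin receptor best known from muscle, measured 102.0, 87.8, 98.5 and 165.5 in the naive libraries and 181.6, 190.3, 169.6 and 144.4 in the DMM libraries. Naive 4 lay above DMM 4, so the groups overlapped. The log2 fold change was 0.59 (SE 0.22) with an adjusted p of 0.0325, just past the fold limit. The call was lost in 6 of the 8 leave-one-out fits, with values of 0.55 without naive 1, 0.50 without naive 2, 0.53 without naive 3, 0.56 without DMM 1, 0.54 without DMM 2 and 0.60 without DMM 3, and adjusted p from 0.0641 to 0.122. It was also lost with edgeR (adjusted p = 0.0628). Of 8 skeletal muscle markers 1 was called higher, and the list spanned 0.000756 to 0.00392% of counts in naive and 0.00111 to 0.0106% in DMM libraries, with the highest value in DMM 1. The part of muscle RNA in the change of Itga7 was not tested.

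Both subunits of the platelet fibrinogen receptor had lower values in every DMM library than in any naive library. Itga2b (ENSMUSG00000034664, chr11:102453297-102470122, minus strand), its alpha subunit, measured 2301.4, 2776.5, 1813.0 and 1678.1 normalised counts in the naive libraries and 999.3, 1208.3, 1082.5 and 904.3 in the DMM libraries. All DMM values lay below all naive values. The mean went from 2142.2 ± 500.5 to 1048.6 ± 129.0, a log2 fold change of -1.03 (SE 0.17, 2.04-fold lower, adjusted p = 1.5e-07), called whichever library was left out. Itgb3 (ENSMUSG00000020689, chr11:104608000-104670476, plus strand), which pairs with Itga2b on platelets and with Itgav on osteoclasts and other cells, measured 4980.9, 5639.4, 4030.6 and 4069.4 in the naive libraries and 3128.1, 3135.7, 3154.5 and 3340.2 in the DMM libraries. There was no overlap between the groups, and the DMM libraries lay close together. Itgb3 passed the adjusted p (0.000224) with a log2 fold change of -0.55 (SE 0.13), under 1.5-fold, and it was called without naive 3 and without naive 4 (-0.62 in both). Of 8 megakaryocyte and platelet markers 7 were called lower, and the list held 0.0404 to 0.0568% of counts in naive and 0.0249 to 0.0319% in DMM libraries. Its mean summed normalised count was 1.91-fold lower in DMM. Within each group the libraries had the same order by the share of this list as by the normalised counts of Itga2b, with library 2 highest and library 4 lowest. Itgb3 did not follow that order, and its highest DMM value was in DMM 4. The part of these cells in the changes of Itga2b and Itgb3 was not tested.

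Itgav and Itgb5, which pair with each other, had higher values in every DMM library than in any naive library. Itgav (ENSMUSG00000027087, chr2:83724397-83806916, plus strand), the alpha subunit of the vitronectin receptors, measured 1654.2, 1659.0, 1564.7 and 2136.2 in the naive libraries and 2638.0, 2306.9, 2654.0 and 2893.5 in the DMM libraries. The groups did not overlap, and naive 4 stood above the other naive libraries. The mean went from 1753.5 ± 258.8 to 2623.1 ± 241.0, and the log2 fold change of 0.58 (SE 0.13, adjusted p = 0.00013) was just under 1.5-fold. Itgav was called with edgeR and with TMM factors, and in 2 of the 8 leave-one-out fits (0.69 without naive 4 and 0.64 without DMM 2). Itgb5 (ENSMUSG00000022817, chr16:33829665-33949338, plus strand), a partner of Itgav in adhesion to vitronectin, measured 1161.7, 1434.1, 1496.2 and 1818.7 in the naive libraries and 2374.3, 2003.8, 2398.8 and 1920.6 in the DMM libraries. All DMM values lay above all naive values. The log2 fold change was 0.56 (SE 0.15, adjusted p = 0.00213), under 1.5-fold, and it was called without naive 4 (0.67), without DMM 2 (0.60) and without DMM 4 (0.61).

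Itga5, the alpha subunit of the main fibronectin receptor, ranged from 452.7 to 621.3 in naive and from 610.1 to 854.6 in DMM libraries. Naive 4 and DMM 4 overlapped. Its log2 fold change of 0.54 (SE 0.16) passed the adjusted p (0.00471) and was under 1.5-fold, and it was called without naive 2 (0.59), without naive 4 (0.63) and without DMM 4 (0.64). The other subunits of this group were low and overlapped. Itga8, a receptor for nephronectin, ranged from 58.9 to 85.6 over all libraries and had a log2 fold change of 0.04 (95% interval -0.38 to 0.46, adjusted p = 0.924). Itgb6, a subunit that activates latent TGF-beta in epithelia, ranged from 30.6 to 59.8 in naive and from 19.8 to 54.2 in DMM libraries (log2 fold change -0.41, 95% interval -1.16 to 0.33, adjusted p = 0.495). Itgb8, another activator of latent TGF-beta, ranged from 43.9 to 147.4 and from 98.4 to 135.2, with a log2 fold change of 0.48 (SE 0.31) and an adjusted p of 0.291. Naive 4 held the highest value of Itgb8, and without it the change was 0.85 with an adjusted p of 0.0119.

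Itga4 and Itga9, related alpha subunits that bind VCAM1, tenascin and osteopontin, differed in direction. Itga4 (ENSMUSG00000027009, chr2:79255426-79333123, plus strand), which blood cells carry, measured 4238.7, 3927.2, 3499.7 and 3202.0 in the naive libraries and 2942.4, 2987.4, 2925.7 and 2820.4 in the DMM libraries. The DMM values lay below the naive values and close together. Its log2 fold change was -0.35 (SE 0.11) with an adjusted p of 0.0089, under 1.5-fold. Itga9 (ENSMUSG00000039115, chr9:118606690-118901003, plus strand) measured 496.0, 465.6, 512.7 and 498.9 in the naive libraries and 657.6, 640.7, 659.4 and 583.9 in the DMM libraries. Naive and DMM values did not overlap, in the direction opposite to Itga4. The log2 fold change of 0.36 (SE 0.10, adjusted p = 0.00279) was also under 1.5-fold.

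Of the 7 integrin subunits carried mainly by white blood cells, Itgam was called. Itgam (ENSMUSG00000030786, chr7:128062640-128118491, plus strand), the alpha subunit of complement receptor 3 on neutrophils and macrophages, measured 5228.0, 5721.9, 5038.8 and 4020.6 normalised counts in the naive libraries and 2493.7, 2712.2, 3532.4 and 3788.8 in the DMM libraries. All DMM values lay below all naive values, although DMM 4 was close to naive 4. The mean went from 5002.3 ± 715.0 to 3131.8 ± 625.9, a log2 fold change of -0.68 (SE 0.16, adjusted p = 0.000524). The call was lost without DMM 1 (-0.58, adjusted p = 0.00504) and with the total count as size factor (-0.51). Of the 31-base words of Itgam transcripts 67.2% also occur in Gm49368, a gene model that overlaps it on the same strand, so reads could be split between them. Gm49368 held 11.8 to 83.8 normalised counts, far fewer than Itgam.

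Itgb2 (ENSMUSG00000000290, chr10:77530252-77565708, plus strand), the beta subunit shared by Itgam, Itgal, Itgax and Itgad, measured 4480.6, 5236.3, 4130.1 and 3341.4 in the naive libraries and 2429.0, 2803.6, 3092.0 and 3207.6 in the DMM libraries. There was no overlap between the groups, and DMM 1 was lowest as for Itgam. Itgb2 had a log2 fold change of -0.58 (SE 0.15, adjusted p = 0.00166), just under 1.5-fold, and it was called in 4 of the 8 leave-one-out fits, at -0.60 without naive 3, -0.68 without naive 4, -0.61 without DMM 3 and -0.63 without DMM 4. All 12 markers of the neutrophil lineage were called lower, and their mean summed normalised count was 1.83-fold lower in DMM. The DMM libraries had the same order by this list as by Itgam and Itgb2, from DMM 1 lowest to DMM 4 highest. In the naive libraries, naive 3 was highest by the list and naive 2 by both genes, while naive 4 was lowest by all. The list was ordered by share of total counts and the genes by normalised counts. The naive orders therefore cannot be compared directly, as naive 2 had a size factor of 0.75167 and one of 0.88611 by total count. Of 8 macrophage markers 0 were called by DESeq2 or edgeR (1 had an unadjusted DESeq2 p under 0.05), and their summed share was 0.0465 to 0.0495% in naive and 0.0471 to 0.0581% in DMM libraries. On normalised counts their summed level was flat, with a log2 ratio of -0.012, DMM over naive. The part of these cells in the lower Itgam and Itgb2 was not tested.

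Itgal (ENSMUSG00000030830, chr7:127296260-127335138, plus strand), the alpha subunit of LFA-1 on lymphocytes, measured 1218.0, 1502.0, 1170.9 and 946.8 in the naive libraries and 956.2, 860.0, 783.7 and 926.9 in the DMM libraries. Naive 4 lay below DMM 1, so the groups overlapped, and the log2 fold change was -0.46 (SE 0.15, adjusted p = 0.014). Itgb7 (ENSMUSG00000001281, chr15:102215995-102231944, minus strand), the beta subunit of gut-homing receptors that pairs with Itga4 and Itgae, measured 454.7, 588.0, 415.3 and 398.0 in the naive libraries and 476.8, 340.8, 269.2 and 310.5 in the DMM libraries. DMM 1 stood among the naive values, the log2 fold change was -0.41 (SE 0.20, adjusted p = 0.127), and without DMM 1 it was called (-0.60, adjusted p = 0.00901). Itgad ranged from 116.8 to 275.4 in naive and from 67.7 to 175.3 in DMM libraries, with a log2 fold change of -0.81 (SE 0.33, adjusted p = 0.0551). It was called without naive 4 (-0.98) and without DMM 3 (-1.18), and its words are shared in part with Itgax (11.3%) and other genes (26.3% in all). Itgax, which marks dendritic cells, ranged from 107.7 to 157.9 over both groups, which overlapped, with a log2 fold change of 0.15 (95% interval -0.18 to 0.47, adjusted p = 0.592). Itgae, which holds T cells to epithelia, was near the lower end of the receptors at 20.7 to 39.7 across the 8 libraries with a log2 fold change of -0.16 (SE 0.33) and an adjusted p of 0.791.

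Itgb1 (ENSMUSG00000025809, chr8:128685654-128733200, plus strand), the common partner of the collagen, laminin and fibronectin binding alpha subunits, measured 3947.6, 4313.0, 4102.3 and 4381.2 in the naive libraries and 4925.2, 4639.7, 5941.9 and 4821.3 in the DMM libraries. The DMM values all lay above the naive values, with DMM 3 highest. The change was small at 0.28 (SE 0.11) on the log2 scale, with an adjusted p of 0.0374 (0.0755 with edgeR). Within the summed level per kilobase of the 8 beta subunits, Itgb1 took 24.2 to 30.3% in naive and 33.9 to 38.1% in DMM libraries, and Itgb5 took 8.63 to 14.4% and 15.5 to 19.5%. Itgb2 took 30.9 to 39.3% in naive and 23.2 to 30.2% in DMM, and Itgb3 took 18.8 to 22.3% and 14.0 to 16.2%. None of these shares overlapped between the groups.

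**Figure D3:**
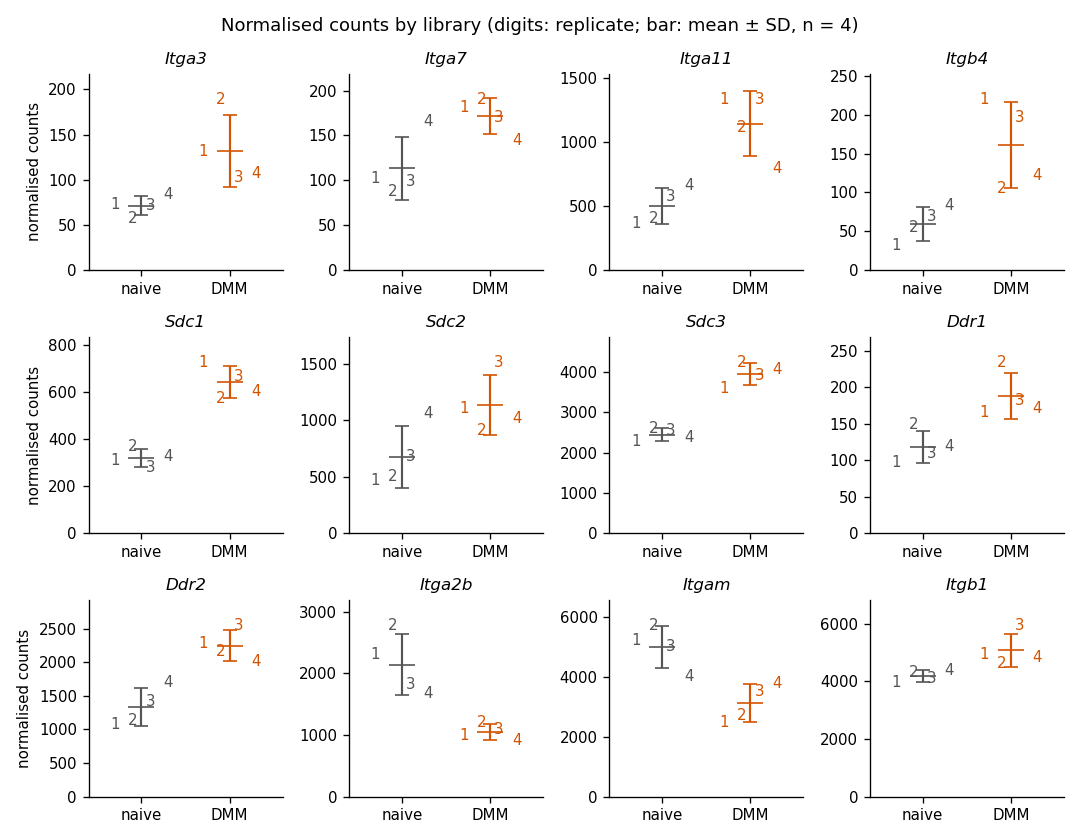
Normalised counts in the 8 libraries of the 11 receptors called by DESeq2 and of Itgb1, with digits for the replicate and bars for the mean and SD of 4 libraries. The groups overlap for Itga7 and Sdc2 and in no other panel.

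Of the 4 syndecans 3 were called higher in DMM. Sdc1 (ENSMUSG00000020592, chr12:8771323-8793715, plus strand), a syndecan of epithelia, plasma cells and healing tissue, measured 310.4, 369.8, 279.3 and 327.7 normalised counts in the naive libraries and 726.5, 575.1, 666.0 and 604.7 in the DMM libraries. All DMM values lay above all naive values with a wide gap. The mean went from 321.8 ± 37.7 to 643.1 ± 67.3, a log2 fold change of 1.0 (SE 0.13) with an adjusted p of 2.42e-11. Sdc3 (ENSMUSG00000025743, chr4:130792537-130826319, plus strand), a syndecan of neurons and of developing cartilage, measured 2267.1, 2600.9, 2554.7 and 2367.5 in the naive libraries and 3599.2, 4236.5, 3911.9 and 4055.9 in the DMM libraries. The groups did not overlap, and the spread within each was small. Sdc3 had a log2 fold change of 0.69 (SE 0.09) with an adjusted p of 5.75e-11, and both Sdc1 and Sdc3 were called whichever library was left out. Gm26716 and Gm12970 overlap Sdc3 on the other strand.

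Sdc2 (ENSMUSG00000022261, chr15:32920723-33034935, plus strand), the syndecan of mesenchymal cells, measured 467.0, 498.9, 680.7 and 1063.5 in the naive libraries and 1103.0, 910.5, 1512.2 and 1014.4 in the DMM libraries. Naive 4 lay above DMM 2 and DMM 4, so the groups overlapped. The log2 fold change was 0.74 (SE 0.25) with an adjusted p of 0.0173. The call was lost without naive 1 (0.60, adjusted p = 0.0761), without naive 2 (0.63, adjusted p = 0.0704), without DMM 3 (0.58, adjusted p = 0.0803) and with edgeR (adjusted p = 0.067). Sdc4 (ENSMUSG00000017009, chr2:164424247-164443887, minus strand), which acts with integrins in focal adhesions, measured 1077.3, 1299.8, 1433.1 and 1503.5 in the naive libraries and 1550.8, 1993.0, 1900.0 and 1898.9 in the DMM libraries. Naive and DMM values did not overlap, though DMM 1 lay close to naive 4. Its log2 fold change of 0.47 (SE 0.14) passed the adjusted p (0.00487) and was under 1.5-fold. Sdc4 took 43.1 ± 1.29% of the summed syndecan level per kilobase in naive and 38.5 ± 2.55% in DMM libraries, without overlap, while the shares of Sdc1, Sdc2 and Sdc3 overlapped. Of 5 plasma cell markers 1 was called higher (Jchain, 1.56 on the log2 scale), and the list spanned 0.0107 to 0.0132% of counts in naive and 0.0211 to 0.0315% in DMM libraries. Jchain made up most of the rise of the list, from 702.9 ± 121.0 to 2074.7 ± 604.5 normalised counts. Xbp1 was 0.13 (adjusted p = 0.407), Mzb1 0.46 (adjusted p = 0.241) and Derl3 0.54 (adjusted p = 0.474). Tnfrsf17, at 1.17, had no adjusted p. The part of plasma cells in the rise of Sdc1 was not tested.

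Both discoidin receptors were called higher. Ddr2 (ENSMUSG00000026674, chr1:169972307-170110762, minus strand), the discoidin receptor of mesenchymal cells and chondrocytes, measured 1076.4, 1136.1, 1408.5 and 1705.3 normalised counts in the naive libraries and 2274.8, 2159.7, 2546.2 and 2006.3 in the DMM libraries. There was no overlap between the groups, and naive 4 was nearest to the DMM range. The mean went from 1331.6 ± 288.0 to 2246.7 ± 227.9, a log2 fold change of 0.76 (SE 0.16) with an adjusted p of 5.02e-05, called whichever library was left out. Ddr1 (ENSMUSG00000003534, chr17:35681567-35704621, minus strand), the discoidin receptor mostly of epithelia, measured 97.6, 149.0, 109.2 and 119.1 in the naive libraries and 165.0, 234.3, 181.9 and 171.5 in the DMM libraries. The DMM values lay above the naive values, with naive 2 close to DMM 1. Ddr1 had a log2 fold change of 0.67 (SE 0.19) with an adjusted p of 0.00432, and the call was lost without naive 1 (0.58) and without DMM 2 (0.55). Ddr2 made up 84.9 ± 3.70% of the summed level per kilobase of both receptors in naive and 86.0 ± 2.43% in DMM libraries, and its share overlapped.

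Compared per kilobase of gene model, the receptors spanned a wide range. In naive libraries Itgb2 was highest at 1408.0 normalised counts per kilobase (1094.8 to 1715.7), followed by Itgb1 at 1025.7 (967.3 to 1073.6), Itgam at 995.7 (800.3 to 1138.9) and Itgb3 at 793.1 (683.0 to 955.7). The range of Itgb2 lay above that of Itgb1, while those of Itgb1 and Itgam overlapped. In DMM libraries Itgb1 was highest at 1245.3 (1136.9 to 1456.0), above the whole range of Itgb2 at 944.6 (795.9 to 1051.0). Sdc4 at 720.7, Sdc3 at 659.7, Itgam at 623.4 and Itgb5 at 612.0 followed, with ranges that overlapped. Itga11 stood at place 18 of 32 in naive (97.1) and at place 11 in DMM libraries (222.5). With the longest transcript as length, Itga11 stood at places 19 and 13, Sdc3 (794.5) passed Sdc4 (746.8) in DMM libraries, and Itga2b moved from 392.8 to 623.3 in naive libraries, from place 8 to place 5. At the lower end, Itgb6 and Itgae lay at 6.72 and 6.49 in naive and at 5.05 and 5.82 in DMM libraries. The lowest normalised count of any receptor in a library was 19.8, and 30 of the 32 had a mean of 50 or more.

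**Figure D4:**
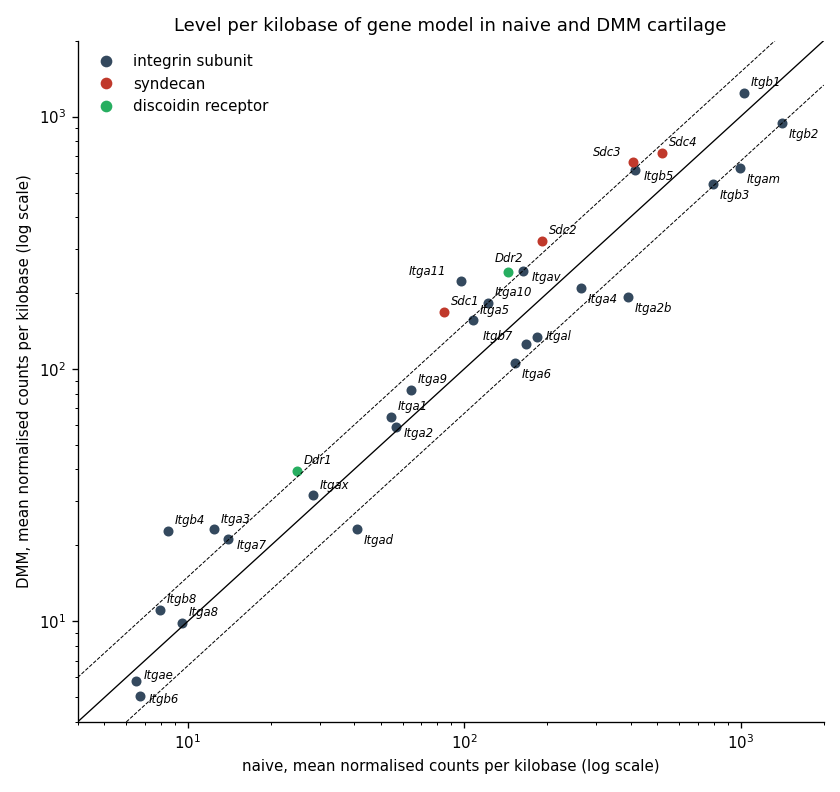
Mean normalised counts per kilobase of gene model in naive (x axis) and DMM (y axis) libraries, both on log scales, for the 32 receptors, with equality as a solid line and 1.5-fold changes as dashed lines. Itgb2 leads in naive libraries at 1408.0 and Itgb1 in DMM libraries at 1245.3.

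The proteins these receptors work with were described by 3 lists. Of 49 ligands, 47 were tested, 32 were called higher and 0 lower by DESeq2 (2 had an unadjusted p under 0.05 in that direction, and edgeR called 0), with a median log2 fold change of 0.88. Those higher were 68.1% of those tested, beside 7.75% of all genes, and 5.92% of all genes were lower. The ligand list shares genes with the marker lists, so their counts are not separate observations. Col2a1, Comp, Col11a1 and Col9a1 are also chondrocyte markers, Ibsp an osteoblast marker and Cdh1 an epithelial marker. The 3 with the smallest adjusted p were Ccn1, a matricellular ligand of Itgav integrins (1.31, SE 0.15, adjusted p = 1.56e-15), Col5a2, a chain of type V collagen (1.34, SE 0.16, adjusted p = 3.61e-13), and Lamb1, a laminin chain (1.44, SE 0.19, adjusted p = 1.58e-11). Ccn1 went from 413.0 ± 27.1 to 1028.1 ± 185.6 normalised counts. Across the leave-one-out fits, between 29 and 36 ligands were called higher.

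Of 39 intracellular adhesion adaptors, 38 were tested, 4 were called higher and 3 lower, with a median log2 fold change of -0.04. These were 10.5% and 7.89% of those tested, near the 7.75% and 5.92% of all genes. The number called higher was 9 with the total count as size factor, 8 without naive 4 and 7 without DMM 4. Of all genes, 2030, 1649 and 1405 were higher in these fits. Those higher with the smallest adjusted p were Bcar1, a docking protein of focal adhesions (0.99, SE 0.17, adjusted p = 5.61e-07), Tns2, a tensin (0.66, SE 0.14, adjusted p = 7.85e-05), and Parva, a parvin (0.78, SE 0.17, adjusted p = 0.000143). Those lower were Fermt3, the kindlin of blood cells (-0.77, SE 0.15, adjusted p = 8.15e-06), Parvg, the parvin of blood cells (-0.82, SE 0.16, adjusted p = 9.09e-06), and Parvb (-0.82, SE 0.17, adjusted p = 6.71e-05). Fermt3 went from 2936.0 ± 527.8 to 1722.7 ± 192.0 normalised counts, in the same direction as Itgb2 and Itga2b. Of 29 enzymes that build or edit heparan sulfate, the chains that syndecans carry, 24 were tested, 4 were called higher and 0 lower by DESeq2 (3 had an unadjusted p under 0.05 in that direction, and edgeR called 0), with a median of 0.28. The 4 were 16.7% of those tested, beside 7.75% of all genes called higher and 5.92% called lower, and few enzymes were tested. The 3 with the smallest adjusted p were Sulf1 (1.10, SE 0.21, adjusted p = 7.22e-06) and Sulf2 (0.81, SE 0.18, adjusted p = 0.000179), which remove sulfate from the chains, and Extl1 (1.04, SE 0.27, adjusted p = 0.00162), a glycosyltransferase.

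**Figure D5:**
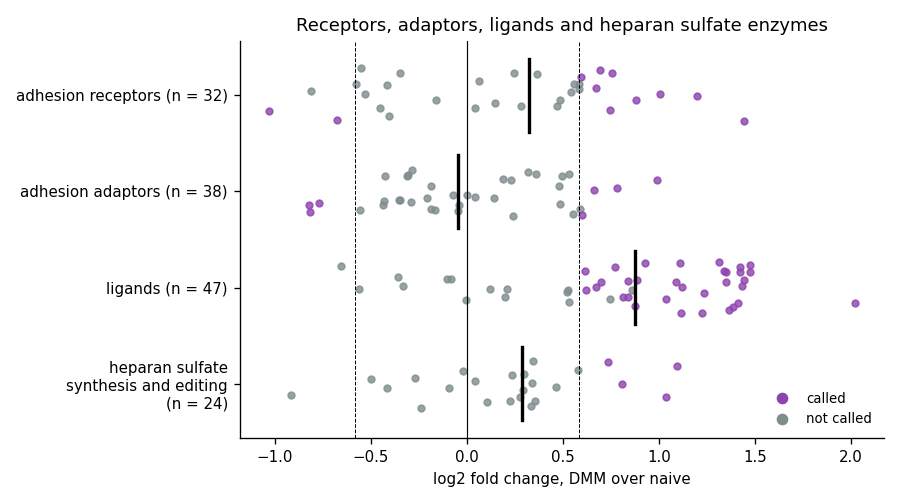
Log2 fold change, DMM over naive, of every tested gene of the adhesion receptors and of the ligand, adaptor and heparan sulfate enzyme lists, with 1 point per gene, coloured where called, a thick bar at the median of each list and dashed lines at 1.5-fold. The medians are 0.32 for the receptors, -0.04 for the adaptors, 0.88 for the ligands and 0.28 for the enzymes.

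The libraries of a group were not alike. For 20 of the 32 receptors naive 4 was the naive library closest to the DMM mean, and for 13 DMM 4 was the DMM library closest to the naive mean. The same count over all genes was not made. Without naive 4, 14 receptors were called higher and 5 lower. Without naive 3, 4 were called lower, and without DMM 3, 5 were. Of all genes, 1377 were called higher and 1052 lower with all libraries, and 1649 and 1193 without naive 4. Those called lower were 951 without naive 3 and 1092 without DMM 3. Across the 8 leave-one-out fits, between 6 and 14 receptors were called higher and between 2 and 5 lower, beside 988 to 1649 and 769 to 1247 of all genes. Those called higher in all 8 fits were Itga3, Itga11, Itgb4, Sdc1, Sdc3 and Ddr2, and the gene called lower in all 8 was Itga2b.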

How the data were processed

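RNA-seq of knee cartilage from 4 naive and 4 DMM mice was analysed. The deposited file holds estimated counts per Ensembl gene, which the authors made with Trimmomatic, Kallisto and tximport, and 39.2% of values were not whole. For these libraries the labels name a human build (GRCh38) and the study's methods a mouse build (GRCm38), the library kits named by the labels and the methods differ, and use of strand in the counting is not given in the sources used here. Here the counts were rounded to whole numbers and tested with the Wald test of DESeq2 1.42.0 (R 4.3.3, median-of-ratios size factors, default filters, no length offsets). P-values were adjusted by Benjamini-Hochberg over 17760 genes, and a call needed an adjusted p of at most 0.05 and a difference of at least 1.5-fold, the thresholds of the study. Alternatives were edgeR 4.0.16, other size factors and filters, other fold limits, the replicate number as a block, and each library left out. On simulated counts with 200 genes changed 2-fold, DESeq2 called 173 of the 200 and 27 unchanged genes of 15839 run, and edgeR 150 and 14 of 18388. The changed genes were drawn from those with a mean of 50 or more normalised counts. The simulation therefore does not describe smaller changes or lower levels, and the edgeR count did not check direction. Libraries are individual mice, so p-values measure spread between mice. Depth was 12479443 to 16548002 counts per library. Positions and lengths were taken by gene identifier from GENCODE vM21 (GRCm38), and the length per kilobase was the union of exons, with the longest transcript as the alternative. Symbols were found for 48855 of the 50462 identifiers. Promoter sequences came from RefSeq.

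The receptors and all lists were chosen with earlier results of these data known. Every receptor is accounted for: values by library are given for those called and for the 2 of each role with the highest level per kilobase, and ranges for the others. In each list of partner genes the 3 called genes with the smallest adjusted p in each direction are named. Of the marker lists not described beside a result, erythroid markers were lower (7 of 8 matched of 9), as were 4 of 5 mast cell and basophil and 2 of 8 T and NK cell markers. By contrast 1 of 7 osteoclast markers was higher, 1 of 6 neural and Schwann markers lower, and 0 of 9 B cell markers were called by DESeq2 or edgeR (2 had an unadjusted DESeq2 p under 0.05).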

Additional observations from a re-analysis of the deposited data

Results flagged for a closer look

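In 2 of 64 groups of 4 libraries (32 receptors in 2 groups), the highest or lowest library stood apart from the other 3 by Dixon's criterion, where chance alone gives about 1 in 20, or 3.2. Itgav in naive 4 was 2136.2 normalised counts, against 1564.7 to 1659.0 in the other naive libraries. Itgb3 in DMM 4 was 3340.2, against 3128.1 to 3154.5 in the other DMM libraries.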

How the results depend on the processing

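The number of receptors called followed the fold limit, the scaling and the library left out. In the DESeq2 test against a 1.5-fold null, 0 receptors were higher and 0 lower (3 and 1 at an unadjusted p under 0.05), and of all genes 80 were higher and 14 lower, 94 in all. At the adjusted p with no fold limit, 17 receptors were higher and 7 lower. Of all genes 2021 were higher and 1989 lower, 4010 in all. With the total count as size factor, 14 were higher and 1 lower, with 2030 of all genes higher and 489 lower. With each library left out in turn, 6 to 14 receptors were higher and 2 to 5 lower, 1858 to 2842 of all genes were called, 988 to 1649 higher and 769 to 1247 lower. The receptors that did not overlap numbered 20 with all libraries and 20 to 25 with a library left out. Leaving a library out can only keep or raise that number, so it is no check of it, and the share over all genes was not computed. Directions turned for changes near 0: the log2 fold change of Itga2 was -0.01 without naive 3 (up to 0.14 with another library left out), that of Itga8 -0.04 without naive 3 and -0.05 without DMM 3 (up to 0.13), and that of Itgae 0.01 without naive 4 (down to -0.26). The causes were not tested. The replicate numbers did not pair the libraries (correlations of same-numbered deviations 0.05, 0.06, -0.12 and 0.12). With the replicate block, 9 receptors were higher and 3 lower, beside 1132 and 949 of all genes, 2081 in all. The block added Itgad and Itgav and lost Itga7.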
